A study of Homo sapiens with 6 samples.

Results

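The 7 genes described here are NGFR, BEX2, BEX3, BEX4, MAGED1, SORT1 and BDNF, taken by symbol from the 60419 genes of the deposited tables. They were chosen because of their values in the same comparison that is described here, myrrh extract against vehicle, so those values are given as a description and without a test. The cells were 12Z, an immortalised line of human endometriotic cells labelled wild type, which are endometrium-like cells taken from growth outside the uterus. They were grown with charcoal-stripped serum and given either DMSO, the vehicle (3 libraries), or 100 µg/mL of an extract of myrrh, a tree resin, in DMSO (3 libraries) for 12 h. All libraries come from this 1 line, and the labels do not say whether replicates were separate cultures, so the spread between them may be technical.

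NGFR encodes the p75 neurotrophin receptor, a member of the tumour necrosis factor receptor family with an intracellular death domain. Neurotrophins, such as BDNF, NTF3 and NTF4, bind the Trk receptor kinases and p75, and their uncleaved precursors bind p75 together with sortilin, the product of SORT1. MAGED1 (also called NRAGE) and BEX3 (also called NADE) were both described as proteins that bind the intracellular part of p75. BEX genes encode small proteins and lie together with the related TCEAL genes on the long arm of the X chromosome. In endometriosis, neurotrophin signalling is known for its part in the nerve supply and pain of the lesions.

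Depth was 22454783 to 27588151 estimated counts per library. Of the markers fixed for the labelled cell type, the epithelial keratins KRT8 and KRT18 and the mesenchymal gene VIM were abundant. CDH1, the epithelial cadherin, was near 0 (0.0448 to 0.329 CPM, which are counts scaled to library size, over all 6 libraries). The summed level of 8 epithelial markers was 1780 to 1870 CPM in DMSO and 1230 to 1360 CPM in Myrrh. Most of it was KRT8 and KRT18. Of 7 tested epithelial markers 3 rose and 4 fell, by edgeR, where 78.4% of all genes tested were called. Those that rose, KRT7, EPCAM and PAX8, had means of 1.04 to 6.01 CPM in DMSO. Scaled to library totals, 1 marker was called higher. With a filter of 5 CPM in 3 libraries, which leaves out KRT7 and EPCAM, 0 were called higher. The 9 mesenchymal markers summed to 9460 to 9690 CPM in DMSO and 3660 to 3870 CPM in Myrrh. Most of that drop was the collagen gene COL1A1, from 5725 ± 164 to 762 ± 17.1 CPM (mean ± SD, n = 3). Of the 9 genes 7 fell and CDH2 and FN1 rose by edgeR. Scaled to library totals, 7 were still called lower and 0 higher.

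The sequences just upstream of the RefSeq starts of the BEX genes are shown first because the genes fell into pairs by sequence. The pairs went in different directions in the values that follow. Each line gives the 250 bases before the transcript start in RefSeq (GRCh38.p14), 5′ to 3′ on the strand of the gene. Capitals mark the longest run of identical bases within a pair and the hexamer CACGTG, a core of the E-box to which many helix-loop-helix factors bind.
BEX2: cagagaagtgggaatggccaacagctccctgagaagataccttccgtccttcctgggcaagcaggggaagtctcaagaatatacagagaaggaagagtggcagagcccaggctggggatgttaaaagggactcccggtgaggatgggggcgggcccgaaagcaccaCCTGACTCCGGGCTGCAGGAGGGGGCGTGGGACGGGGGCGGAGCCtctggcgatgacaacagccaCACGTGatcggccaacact
BEX4: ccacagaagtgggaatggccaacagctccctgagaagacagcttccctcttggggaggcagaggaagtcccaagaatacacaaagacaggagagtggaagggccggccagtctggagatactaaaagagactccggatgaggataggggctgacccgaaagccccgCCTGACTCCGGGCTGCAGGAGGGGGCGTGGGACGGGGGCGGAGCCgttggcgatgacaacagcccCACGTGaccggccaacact
BEX1: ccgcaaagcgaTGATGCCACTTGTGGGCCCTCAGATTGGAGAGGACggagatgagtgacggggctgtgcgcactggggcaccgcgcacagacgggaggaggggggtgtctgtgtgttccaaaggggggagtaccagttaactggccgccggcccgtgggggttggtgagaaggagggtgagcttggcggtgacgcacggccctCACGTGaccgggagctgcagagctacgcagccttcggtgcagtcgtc
BEX3: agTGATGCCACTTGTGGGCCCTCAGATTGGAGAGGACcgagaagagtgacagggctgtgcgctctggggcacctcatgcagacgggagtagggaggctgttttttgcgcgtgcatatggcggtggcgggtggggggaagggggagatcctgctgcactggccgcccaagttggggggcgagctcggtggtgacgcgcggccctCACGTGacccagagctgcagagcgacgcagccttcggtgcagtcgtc
These windows are chrX:103310991-103311240 (BEX2, minus strand), chrX:103214858-103215107 (BEX4, plus), chrX:103064172-103064421 (BEX1, minus) and chrX:103376288-103376537 (BEX3, plus). The table gives 2 starts for BEX4 and 3 for BEX3, and the window closest in sequence to the partner gene is shown. In GENCODE, the other annotation used here, the gene starts fall inside these windows. They are at 103311046 (BEX2), 103215092 (BEX4), 103064240 (BEX1) and 103376340 (BEX3). By that annotation, part of each window lies within the gene, and the word upstream refers here to the RefSeq starts alone. For NGFR no promoter is shown.

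Upstream, BEX2 and BEX4 were identical at 87.0% of aligned bases and BEX1 and BEX3 at 85.3%. The other 8 pairs among BEX1 to BEX5 had 56.6% to 66.0%. The BEX3 and BEX4 starts were picked for likeness to BEX1 and BEX2, which favours the first 2 values. Identities with the other starts were not computed. The 45-base run of BEX2 and BEX4 covered positions -84 to -40 in both, counted back from the start, and in the table of 35116 promoters it was found in these 2 genes alone. The 35-base run of BEX1 and BEX3 was likewise found in these 2 genes alone. The pairs were different in the coding sequence. There BEX1 and BEX2 were the most similar, with 94.4% of aligned bases identical, against 65.3% for BEX2 and BEX4 and 65.1% for BEX1 and BEX3 (GENCODE 29, longest coding sequence of each gene).

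CACGTG reads the same on both strands. It was present 19 bases before the RefSeq start shown in BEX2 and BEX4 and 47 bases before it in BEX1 and BEX3. By the GENCODE starts, CACGTG lay inside BEX1, BEX2 and BEX3 and across the start of BEX4. In BEX3 and BEX4 it was found at the start shown and at no other start. Of 13 BEX and TCEAL genes in the promoter table, 11 had it within 250 bases of a start, and BEX5 and TCEAL9 did not. It was found in 6.34% of all 35116 windows of that length, and 7.73% of genes had it in at least 1 window. Of the other members, BDNF had it upstream of 1 of its starts, and MAGED1 and SORT1 did not. Neither a heat shock element (GAA, TTC and GAA, each separated by NN, in 0.441% of windows), nor a cyclic AMP response element (TGACGTCA, 1.65%), an AP-1 site (TGACTCA, 4.2%) or the letters TGATGCAA (0.772%, a composite site of CHOP and ATF4) occurred in any window of the 6 members in the table. These were searched on both strands. The letters TGACNNNGC, the core of the antioxidant response element, occurred in 10.9% of windows, and in BEX3 and BDNF among the members. A match describes letters and not a bound site, and the motifs were picked after the values were known.

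The levels of the 7 genes spanned a wide range. In TPM, which corrects for transcript length and allows comparison between genes, the order in DMSO was BEX3, MAGED1, BDNF, BEX4, SORT1, BEX2 and NGFR. In Myrrh it was BEX3, MAGED1, BEX2, BEX4, BDNF, NGFR and SORT1. BEX4 (2.56 to 2.73 TPM) and SORT1 (2.25 to 2.54 TPM) were the closest neighbours in DMSO and barely did not overlap. All 7 passed the filter on low counts, NGFR and BEX2 through their Myrrh libraries alone. In all 7 the DMSO and Myrrh libraries did not overlap in CPM, 4 being higher and 3 lower in Myrrh. Over all 16395 genes tested, 80.3% did not overlap either, and since the genes were chosen on this comparison nothing is read from the count.

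**Figure D1:**
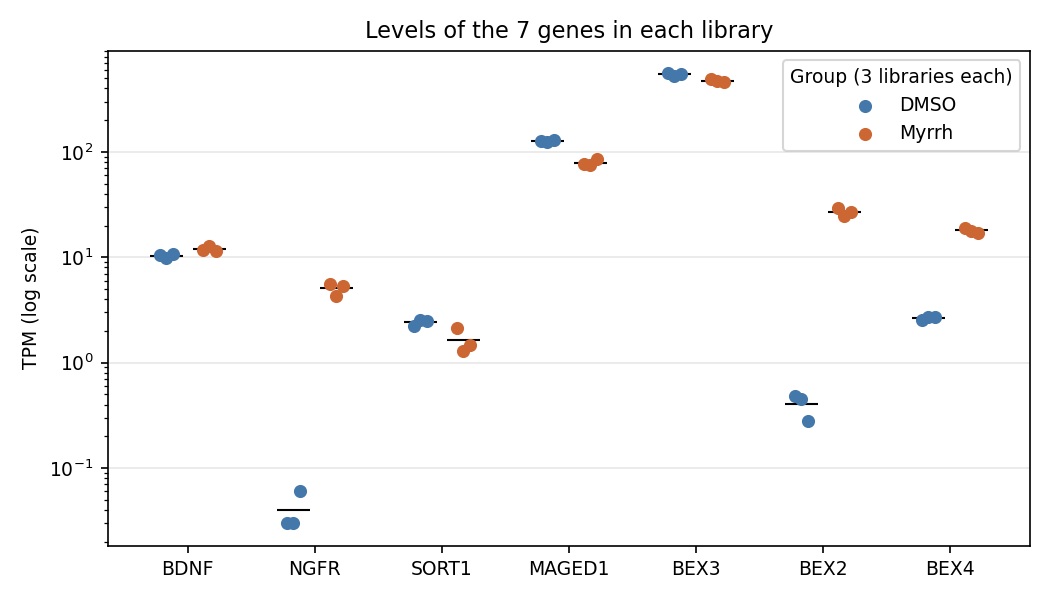
TPM on a log scale (vertical axis) of the 7 genes (horizontal axis) in each of 3 DMSO and 3 Myrrh libraries; points are libraries and lines are group means. NGFR and BEX2 go from below 1 TPM to 4.3 TPM or more, BEX4 is higher in Myrrh, and MAGED1 and BEX3 are lower but still the most abundant.

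Among the ligands, BDNF, the brain-derived neurotrophic factor, was nearly level. It had 10.48, 9.76 and 10.73 TPM in DMSO and 11.78, 12.68 and 11.5 TPM in Myrrh. The groups did not overlap, but they lay close together. In CPM the log2 fold change of Myrrh against DMSO was 0.15 ± 0.07 (SE). Scaled to library totals and not by TMM (which corrects for a shift of many genes), it was 0.01 and the groups overlapped, at 32.5 to 34.7 CPM in DMSO and 32.3 to 37.1 CPM in Myrrh.

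BDNF lies on chromosome 11 at 27654893 to 27722058 (GRCh38, minus strand), where the noncoding gene BDNF-AS overlaps it on the opposite strand. BDNF had fractional estimated counts in all 6 libraries, as had BDNF-AS, which was singled out after its values were seen. The sum of the pair was within 0.05 of a whole number in all 6, from 760 to 963 counts, and BDNF-AS took 4.14% to 6.98% of it. Whether reads were counted by strand is not stated in the labels, so the division of these reads between the 2 genes is uncertain. The other 6 members had whole counts in every library.

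Of the other neurotrophins, NTF3 had no counts in any library. NTF4 had 1 to 11 counts per library in DMSO and 2 to 4 in Myrrh and was too low to test.

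Among the receptors, NGFR went from nearly undetected to a low level. The DMSO libraries held 1, 2 and 4 NGFR counts and the Myrrh libraries 311, 249 and 276. In TPM these were 0.03, 0.03 and 0.06 against 5.54, 4.3 and 5.32. All 3 Myrrh libraries were close together, and the lowest was far above the highest DMSO library. The log2 fold change in CPM was 7.07 ± 0.24 (SE). It was the 14th highest of all genes tested, in the comparison on which NGFR was chosen. This SE is too small for a gene with 7 DMSO counts in all, and the counting interval that follows is wider. On summed counts per library size the ratio was 142, with a 95% exact binomial interval of 68.7 to 355 that covers counting error only. NGFR lies on chromosome 17 at 49495293 to 49515017 (plus strand), and its longest transcript has 6 exons. A pair of unnamed genes overlap it on the opposite strand, and neither was tested. In these bulk libraries, more cells with NGFR and more NGFR RNA per cell cannot be told apart.

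SORT1, sortilin, a sorting receptor that also binds the precursors of neurotrophins, was lower in Myrrh. It had 284, 398 and 364 counts in DMSO and 196, 158 and 160 in Myrrh, and the log2 fold change in CPM was -0.77 ± 0.10 (SE). In TPM it had 2.25, 2.54 and 2.51 in DMSO and 2.11, 1.3 and 1.46 in Myrrh. The first Myrrh library, at 2.11 TPM, lay just under the lowest DMSO library. That library stood apart in the number of counts per TPM, which follows the length of the transcripts to which the reads were assigned. On a log2 scale relative to the median gene of the library, this was 1.3 there and 1.63 to 1.66 in the other 5. The log2 difference in TPM was -0.58 with a pseudocount of 0.1 and -0.4 with a pseudocount of 1, so the size of the SORT1 difference depended on the unit.

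The ratio of NGFR to SORT1 in TPM was 0.0133, 0.0118 and 0.0239 in DMSO and 2.63, 3.31 and 3.64 in Myrrh. SORT1 was thus the more abundant of the pair in each DMSO library and NGFR in each Myrrh library. SORT1 lies on chromosome 1 at 109309568 to 109397951 (minus strand).

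The Trk receptors are the kinases for neurotrophins. NTRK2, the receptor of BDNF, had no counts in any library. NTRK3, the receptor of NTF3, fell from 1.3 ± 0.397 to 0.568 ± 0.162 CPM (mean ± SD, n = 3; log2 fold change -1.19 ± 0.32, adjusted p 0.0015 by edgeR's quasi-likelihood F-test, Benjamini-Hochberg over all genes tested). By that test 78.4% of all genes were called, 39.3% higher and 39.1% lower in Myrrh. Every list or marker count, above and below, is to be read against these shares. On log2(TPM + 1) the NTRK3 difference was -0.04 and the call was lost (adjusted p 0.861 by limma).

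Of the other 9 genes on the list of neurotrophin receptors, 4 were tested, with 1 higher, 2 lower and 1 not called. The gene that rose was RTN4R, the Nogo receptor, which pairs with p75 in neurons (log2 fold change 1.68 ± 0.26, adjusted p 1.69e-06 by edgeR), from 0.666 ± 0.144 to 2.16 ± 0.282 CPM. SORL1, a relative of sortilin, was at -0.55 ± 0.39 and not called. On log2(TPM + 1) none of the 4 was called lower.

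The adaptors of p75 include MAGED1 and BEX3, which were both abundant and lower in Myrrh. MAGED1 had 125.5, 124.1 and 129.1 TPM in DMSO and 76.1, 74.5 and 85.5 TPM in Myrrh. The groups were far apart relative to the spread, and the log2 fold change in CPM was -0.66 ± 0.06 (SE). MAGED1 lies on chromosome X at 51803007 to 51902357 (plus strand), far from the BEX genes. BEX3 had 556.6, 526.7 and 542.7 TPM in DMSO and 491.6, 468 and 461.2 TPM in Myrrh. All BEX3 values in Myrrh were below all values in DMSO, but by a small margin, and its log2 fold change was -0.23 ± 0.05. Scaled to library totals, BEX3 was at -0.37 and MAGED1 at -0.8, while the median of all genes went from -0.02 to -0.16.

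Of the 16 other genes on the list of p75 adaptors and effectors, 15 were tested, and 11 rose, 3 fell and 1 was not called, a share called of 93.3%. Their median log2 fold change was 0.52, against -0.02 for all genes. SQSTM1 (p62), a scaffold that links p75 to TRAF6 and is better known as an autophagy receptor, rose by 2.76 ± 0.06 on the log2 scale, from 509 ± 5.22 to 3449 ± 103 CPM. PRDM4, a zinc finger factor that binds p75, rose by 1.67 ± 0.06, and RIPK2, a kinase that binds its death domain, by 1.57 ± 0.05. The highest adjusted p of these was 3.15e-19 by edgeR. None of these genes serves p75 alone. BEX1 was among the 3 that fell.

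The list of type II MAGE genes, the relatives of MAGED1, had 8 tested genes besides it, of which 2 rose, 5 fell and 1 was not called, with a median of -0.49. On log2(TPM + 1), 3 of them were called lower. TRO, trophinin, an adhesion protein of the trophoblast and endometrium, fell by 1.13 ± 0.10 on the log2 scale (adjusted p 9.61e-10 by edgeR), from 27.5 ± 2.55 to 12.6 ± 1.86 CPM. MAGED4 and MAGED4B are near-identical copies that share reads, and their values are uncertain. NDN, necdin, another protein that binds p75, had counts in 1 DMSO library only.

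BEX2 and BEX4 were higher in Myrrh. BEX2, a regulator of apoptosis and the cell cycle in tumour cells, had 6, 6 and 4 counts in DMSO and 351, 296 and 287 in Myrrh. In TPM these were 0.48, 0.45 and 0.28 against 29.5, 24.6 and 26.7, with no overlap. Its log2 fold change in CPM was 6.08 ± 0.19 (SE), and this SE is too small for a gene with 16 DMSO counts in all. The ratio of summed counts per library size was 69.5, with a 95% exact binomial interval of 42.6 to 122 that covers counting error only. BEX4, which was described to bind tubulin, was already present in DMSO, at 2.56, 2.71 and 2.73 TPM. In Myrrh it had 19.1, 17.9 and 17.1 TPM, and its log2 fold change in CPM was 2.71 ± 0.12. In TPM, BEX2 was thus below BEX4 in every DMSO library and above it in every Myrrh library. In CPM, which does not correct for transcript length, BEX4 was the higher in every library. There the Myrrh libraries had 15.3, 16.31 and 14.42 CPM for BEX4 and 14.71, 13.26 and 13.48 CPM for BEX2.

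BEX1, which shares most of its coding sequence with BEX2, fell. It had 255.1, 252.2 and 256.4 TPM in DMSO and 166.6, 158.6 and 168 TPM in Myrrh, and its log2 fold change in CPM was -0.67 ± 0.05 (adjusted p 1.46e-12 by edgeR). All BEX counts were whole numbers in all libraries, so no reads were divided between BEX1 and BEX2 in the deposited values. BEX5 was too low to test, with 5 counts in all DMSO and 35 in all Myrrh libraries. Its ratio per library size was 8.33, with a 95% exact binomial interval of 3.25 to 27.3, again for counting error only.

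The 2 genes that share the upstream run of 45 bases were therefore both higher in Myrrh, and the 2 that share the run of 35 bases were both lower. These are 4 genes of 1 family, and whether the shared sequence bears on the difference was not tested.

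**Figure D2:**
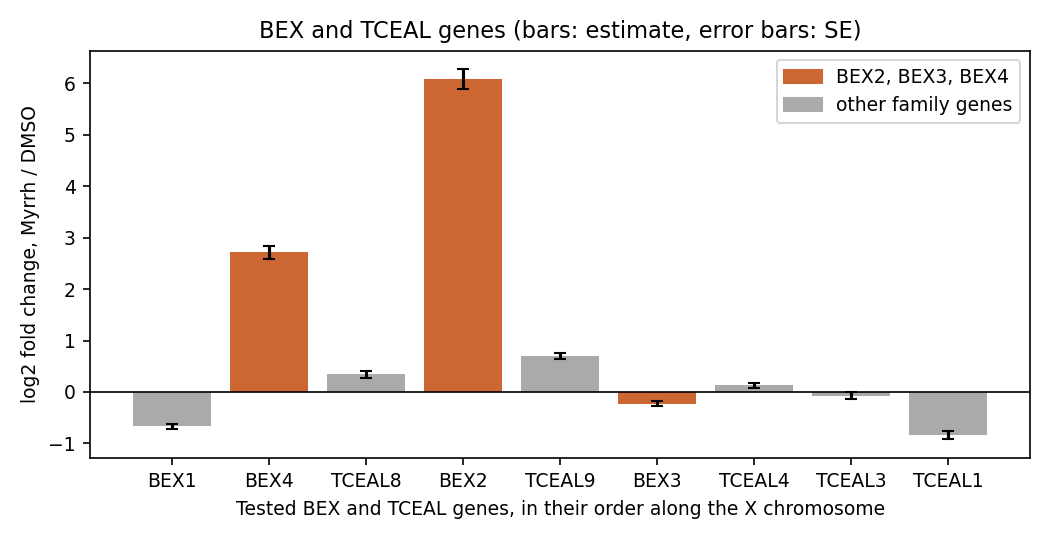
Log2 fold change of Myrrh against DMSO (vertical axis; bars are estimates in CPM and error bars the SE) for the 9 tested BEX and TCEAL genes in their order along the X chromosome. BEX2 (6.08) and BEX4 (2.71) stand above the rest, which lie between -0.84 and 0.7. The error bar of BEX2, which had 16 DMSO counts in all, is too small.

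Summed over BEX1 to BEX5, the family had 800 ± 16.4 TPM in DMSO and 684 ± 20.5 TPM in Myrrh (mean ± SD, n = 3). BEX3 and BEX1 made up most of it in both groups. BEX3 went from 67.7% ± 0.513 to 69.2% ± 0.737 of the sum and BEX1 from 31.8% ± 0.473 to 24.0% ± 0.757. BEX2 and BEX4 together went from 0.384% ± 0.0174 to 6.57% ± 0.276. So the family's total was lower in Myrrh while its makeup shifted by a few percent towards BEX2 and BEX4.

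**Figure D3:**
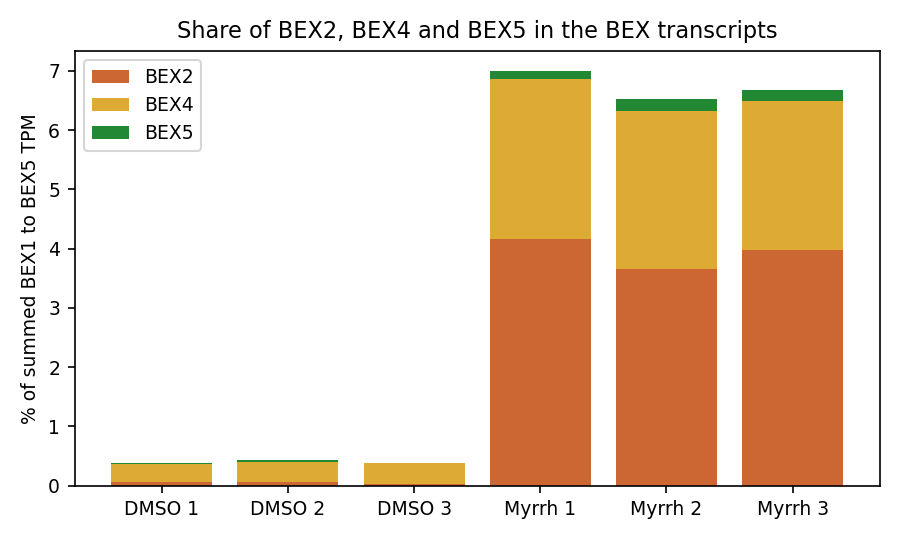
Share of BEX2, BEX4 and BEX5 in the summed TPM of BEX1 to BEX5 (vertical axis, percent) in each library (horizontal axis), stacked from 0; the remainder, BEX1 and BEX3, is not drawn. BEX2 and BEX4 together make up 0.373% to 0.404% under DMSO and 6.33% to 6.87% under Myrrh.

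BEX4 (103215092 to 103217246, plus strand) and BEX2 (103309346 to 103311046, minus strand) lie on the X chromosome between BEX1 and BEX3 (103376340 to 103378077, plus strand). Of the 7 tested genes in this stretch, from BEX1 on, the log2 fold changes in chromosomal order were -0.67 for BEX1, -1.75 for NXF3, 2.71 for BEX4, 0.34 for TCEAL8, 6.08 for BEX2, 0.7 for TCEAL9 and -0.23 for BEX3. The values of BEX2 and BEX4 were thus above those of the genes beside them. TCEAL9, the neighbour of both BEX2 and BEX3, rose from 133 ± 5.4 to 216 ± 20.1 CPM (adjusted p 1.74e-10 by edgeR). Of the 11 BEX and TCEAL genes that were not among the 7, 6 were tested, with 3 higher, 2 lower and 1 not called. That is 83.3% called, against 78.4% of all genes.

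The genes beside the other members went both ways. Next to NGFR, NXPH3, a secreted neurexophilin, was lower (-1.43 ± 0.32) and EIF4EP2, a pseudogene of a translation factor, higher (1.21 ± 0.33), both at about 1 CPM. Next to SORT1, PSMA5, a proteasome subunit whose gene lies 1080 bases away, rose by 0.85 ± 0.05 and PSRC1, a spindle protein, fell by 2.04 ± 0.07 on the log2 scale. Next to MAGED1, GSPT2, a translation termination factor, rose by 0.94 ± 0.09, and MAGED4B on the other side was at -0.93 ± 0.19, in the direction of MAGED1 but with reads shared with its copy. PSRC1 likewise went in the direction of SORT1. The highest adjusted p of these 6 was 0.00791 by edgeR. Next to BDNF, LIN7C, a scaffold protein, rose by 0.75 ± 0.07 (adjusted p 1.24e-10 by edgeR). The gene on its other side, HSP90AA2P, was at 2.79 ± 0.25, but it is a pseudogene of an abundant chaperone and its reads are uncertain.

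A step from nearly absent to present, as in NGFR and BEX2, was looked for with fixed cutoffs. A mean of at most 0.5 CPM in DMSO and at least 5 CPM in Myrrh was met by 13 genes with a symbol, NGFR and BEX2 among them. The number of genes as low in DMSO was not counted, so no share is given. By the Euclidean distance of log2(TPM + 1) over the 6 libraries, the 5 genes of this set most like NGFR were RPLP0P2 (0.251), RRAGD (0.425), BHLHA15 (0.503), ULBP1 (0.811) and DUSP2 (0.916). RPLP0P2 is a ribosomal protein pseudogene, and its reads may come from the parent gene. RRAGD is a GTPase of nutrient signalling at the lysosome and BHLHA15 a helix-loop-helix factor of secretory cells. For BEX2, which reached a higher TPM, the nearest were PHLDA1-AS1 (1.19), HSPA7 (1.89), KRT34 (3.03), MSX1 (3.05) and DUSP2 (3.79). The distance between NGFR and BEX2 was 3.9. These distances follow the level in Myrrh and rest on 2 groups of 3 libraries.

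The enzymes that cut p75 and the proteins that process its ligands moved both ways. Of the 8 genes for p75 cleavage, which are ADAM proteases and subunits of gamma-secretase, 5 rose, 2 fell and 1 was not called. ADAM17, the protease that sheds the extracellular part of p75, rose by 1.18 ± 0.09 on the log2 scale, from 35.0 ± 2.78 to 79.0 ± 9.48 CPM (adjusted p 2.36e-08 by edgeR). On log2(TPM + 1), none of the 8 was called lower.

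Of 15 genes for the processing of neurotrophin precursors, 10 were tested, with 2 higher, 5 lower and 3 not called. Plasmin cleaves precursors outside the cell, and its activators PLAU (-1.13 ± 0.06) and PLAT (-1.03 ± 0.09) both fell. PLAU went from 48.6 ± 1.8 to 22.2 ± 1.2 CPM and PLAT from 26.3 ± 0.549 to 12.9 ± 1.88 CPM. The higher adjusted p of the pair was 4.2e-11 by edgeR. PLG, the source of plasmin, had at most 11 counts in a library. MMP3, a matrix metalloprotease, rose by 2.37 ± 0.46, to 0.793 ± 0.281 CPM, and the convertase PCSK6 was at -2.29 ± 0.46, from 0.675 ± 0.0463 CPM. PCSK6 was not called on log2(TPM + 1) (-0.11, adjusted p 0.264 by limma), and 3 list genes were called lower on that scale. FURIN, the main convertase inside the cell, was not called (-0.02).

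Of 15 Trk adaptor genes, all tested, 5 rose, 5 fell and 5 were not called, which is 66.7% called. FRS2, a docking protein of Trk and fibroblast growth factor receptors, rose by 1.22 ± 0.07, and SHC3, a neuronal Shc adaptor, fell by 1.32 ± 0.07 on the log2 scale, from 40.4 ± 0.849 to 16.2 ± 0.612 CPM. Among 12 tested regulators of BDNF transcription, 7 rose, 3 fell and 2 were not called, with a median of 0.32. In log2(TPM + 1) only 1 of them was called lower. CREM, a relative of CREB, rose by 1.27 ± 0.08 and MEF2D, an activity-dependent factor, by 1.03 ± 0.06. The highest adjusted p of these 4 was 2.46e-13 by edgeR.

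**Figure D4:**
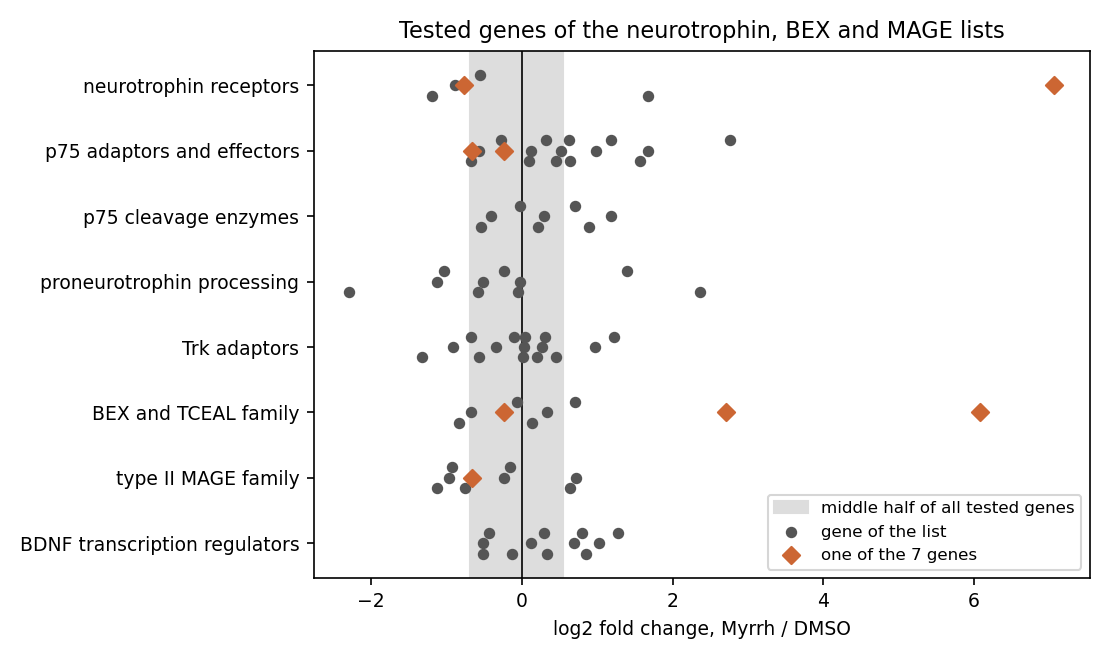
Log2 fold change of Myrrh against DMSO in CPM (horizontal axis) for the tested genes of 8 lists (vertical axis); grey points are list genes, orange diamonds the members other than BDNF, and the grey band holds the central 50% of all tested genes, from -0.69 to 0.55. NGFR (7.07) and BEX2 (6.08) lie far to the right of every other gene shown.

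Over all lists, 77 of 98 genes that were not among the 7 were tested, and 36 rose, 26 fell and 15 were not called. The share called was 80.5%, close to the 78.4% of all genes, and the median log2 fold change was 0.09. Measured as log2(TPM + 1), 15 fell.

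NGFR also marks Schwann cells, neural crest cells and some mesenchymal cells, and neurons carry BEX genes. The summed level of 10 neural crest and Schwann cell markers was 104 to 109 CPM in DMSO and 111 to 118 CPM in Myrrh, most of it PMP22 and L1CAM. The defining SOX10 had at most 0.0939 CPM in any library, and S100B and CDH19 had no counts. Of 4 tested genes of that list 1 rose and 3 fell, by edgeR. Scaled to library totals, 0 were called higher. The summed level of 13 neuron markers was 745 to 769 CPM in DMSO and 960 to 1080 CPM in Myrrh, most of it UCHL1, and ELAVL4 had no counts. Of 8 tested neuron markers 4 rose and 3 fell. The 5 leukocyte markers summed to 33.9 to 34.7 CPM in DMSO and 51.3 to 63.6 CPM in Myrrh. Nearly all of it was CD68, and CD3E had no counts. Of 3 tested leukocyte markers 1 rose (CD68) and 2 fell (PTPRC and CD14), by edgeR. The 4 endothelial markers summed to at most 0.8 CPM.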

How the data were processed

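The members and lists were chosen with earlier results of these data known. Sequencing libraries came from total RNA (TruSeq RNA kit of Illumina, per the labels' protocols). The authors deposited estimated counts per gene; the submitters' processing notes name STAR, RSEM 1.3.1 and GRCh38, and no source used here gives the annotation or strand setting. They also deposited log2(TPM + 1), from which TPM were recovered. Groups came from the titles.

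Counts were rounded, filtered with filterByExpr (16395 genes left), scaled by TMM and fitted over all 6 libraries with edgeR 4.0.16 in R 4.3.3 (quasi-likelihood F-test, robust, two-sided). P-values were adjusted by Benjamini-Hochberg over all genes tested, with a threshold of 0.05, and SE is the log2 fold change over the square root of F. This SE is too small where a group has very few counts, as for NGFR and BEX2 in DMSO. The scripts were tested on simulated data. Alternatives used DESeq2 1.42.0, limma 3.58.1, other scalings, filters and pseudocounts, a replicate block, and each library left out.

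Named were all 7 members; of each list, up to 3 called genes each way with a log2 fold change of at least 1 in size; 9 further ligand, receptor and BEX genes; the 5 genes most like NGFR and BEX2; and the nearest tested gene on each side of a member. BDNF-AS, FURIN, PLG, NDN and the other list or marker genes named beyond this were chosen after their values were seen. Positions are from GENCODE 29 (GRCh38), matched by Ensembl identifier. Promoters are from RefSeq, and 6 of the 7 members matched by symbol. Upstream windows were aligned globally. Some genes that the rule names are not reported here.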

Additional observations from a re-analysis of the deposited data

How the results depend on the processing

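All 7 members kept the sign of their log2 fold change in all 14 alternatives. Leaving out each library in turn gave 6.8 to 7.64 for NGFR (7.64 without DMSO replicate 3, which held 4 of its 7 DMSO counts), 5.89 to 6.25 for BEX2, 2.67 to 2.77 for BEX4, -0.26 to -0.19 for BEX3, -0.71 to -0.62 for MAGED1, -0.83 to -0.72 for SORT1 and 0.07 to 0.2 for BDNF (0.07 without Myrrh replicate 2). With scaling to library totals, BEX3 was at -0.37, BEX4 at 2.57, MAGED1 at -0.8, SORT1 at -0.91 and BDNF at 0.01. With a filter of 5 CPM in 3 libraries, BEX3 was at -0.33, BEX4 at 2.61 and MAGED1 at -0.76. On log2(TPM + 1), which shrinks low genes, NGFR was at 2.54, BEX2 at 4.31, BEX4 at 2.37 and SORT1 at -0.4. With a pseudocount of 0.1, NGFR was at 5.2, BEX2 at 5.77 and SORT1 at -0.58. The list genes called lower numbered 15 on both TPM scales, against 26 in counts; the cause was not tested. Of 261 alternative fits of 19 tested list genes chosen by the naming rule, 257 kept the outcome of the main fit. That outcome was a call and its direction, or for SORL1 no call. NTRK3 and PCSK6 lost their call on both TPM scales. The replicate numbers did not pair the libraries (correlations of same-numbered libraries of -0.0596, -0.00454 and 0.0361), and with the replicate block NGFR was at 7.07, BEX2 at 6.07 and BDNF at 0.15. No member's value was limited by depth except NGFR and BEX2 in DMSO, with 7 and 16 counts in all.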
